A study of Mus musculus with 6 samples.

Results

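The smoke-exposed Spp1 knockout state was set beside the state of unexposed wild type mice in lung antigen presenting cells, across 19057 annotated genes. The members were the 2 arrays titled Spp1-/- smoke and the 2 titled WT Air, 4 of the 6 arrays of the series, and each gene was read from the probe with the highest mean over all 6 arrays. All cells came from the lungs of female C57BL/6 mice. The Spp1-/- smoke mice lacked Spp1 and had inhaled cigarette smoke for 4 months, and the WT smoke mice carried intact Spp1 and had the same exposure. The WT air mice carried intact Spp1 and were kept in room air. Air-exposed Spp1-/- mice are not among the groups, so genotype and smoke cannot be told apart in the comparison with WT air. The 2 WT smoke arrays are given beside it for the genes shown array by array, and other genes are given by their difference from WT air alone.

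Spp1 encodes osteopontin, a secreted phosphoprotein of the extracellular matrix that also acts as a cytokine and binds integrins and CD44. Lung antigen presenting cells comprise alveolar and interstitial macrophages and dendritic cells, which take up inhaled particles, degrade them in lysosomes and present peptides to T cells. In many cell types, type I interferon switches on a shared set of antiviral genes, and IRF7 amplifies that response. Macrophages of smokers and of smoke-exposed mice are known for pigment and lipid loading and for making the elastase MMP12.

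Values were deposited log2 intensities, so a difference of 1 is a 2-fold difference. They ran from 6.619 to 16.014 with a median of 7.264 on each array, and values near the lower end are compressed by the floor. Replicate arrays correlated with Pearson r = 0.9936 in Spp1-/- smoke, 0.9917 in WT smoke and 0.9773 in WT air across all probes. A gene's SD had a median of 0.06 in Spp1-/- smoke, 0.07 in WT smoke and 0.1 in WT air (log2, n = 2 each). Whether replicate arrays came from different mice is not stated in the labels, so the p-values reflect the spread among these arrays alone, which could be technical. Spp1 itself had no probe named for it in the annotation used here, so the genotype label could not be checked against the targeted gene. Of the defining markers of the labelled cells, Chil3, a macrophage chitinase-like protein, was bright at 15.53 and 16 in Spp1-/- smoke, 15.53 and 15.65 in WT smoke, and 15.65 and 15.55 in WT air. The MHC class II chain H2-Aa was bright too, at 14.26 and 14.12 in Spp1-/- smoke, 14.05 and 14.18 in WT smoke, and 14.56 and 14.56 in WT air. The probes of Siglecf, a lectin of alveolar macrophages, and Flt3, the growth factor receptor of dendritic cells, lay near the array median in every group (7.23 to 7.72 over both genes).

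Relative to WT air, 1353 genes were higher in Spp1-/- smoke (7.1% of the 19057 compared) and 1206 were lower (6.33%), at a limma adjusted p under 0.05 (called). The median difference over all genes was 0.01. The groups did not overlap for 53.8% of all genes, and for all of the 2559 called. A change of at least 2-fold was reached by 506 of the higher genes (2.66% of all compared) and 725 of the lower ones (3.8%). At 4-fold or more there were 65 higher and 275 lower genes. Of the 12382 genes in the brighter 50% of probes, 2513 were called (20.3%), with 10.8% higher and 9.48% lower, and most members of the gene lists described here lie among these brighter genes. The total of 2559 calls depended on the arrays. It was 808 without Spp1-/- smoke replicate 1 and 564 without Spp1-/- smoke replicate 2. It was 3926 without WT air replicate 1 and 2642 without WT air replicate 2, and 1626 when either WT smoke array was left out.

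**Figure D1:**
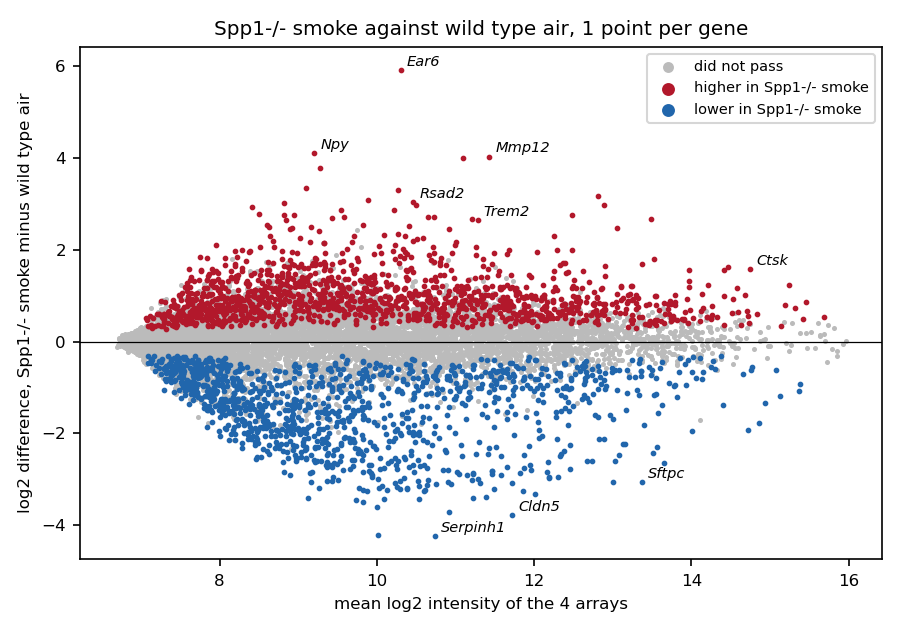
Difference between Spp1-/- smoke and WT air (y axis, log2) against mean level over the 4 arrays (x axis, log2 intensity), with 1 point per gene and called genes coloured. The 1353 higher and 1206 lower genes sit mostly to the right of the floor, and Ear6, at 5.91, lies farthest from 0.

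The largest increases included genes of secreted enzymes, chemokines and surface receptors. Ear6, an eosinophil-associated ribonuclease gene whose close family copies may share probe signal, had the largest difference. It read 13.14 and 13.39 in Spp1-/- smoke and 12.93 and 13 in WT smoke, against 7.67 and 7.04 in WT air. That is a difference of 5.91 ± 0.23 (log2, SE, n = 2 each, adjusted p = 0.00205). Npy, a neuropeptide transmitter gene, read 11.07 and 11.44 in Spp1-/- smoke and 11.45 and 11.33 in WT smoke, against 7.15 and 7.15 in WT air. Its rise was 4.11 ± 0.14 (adjusted p = 0.00205). Mmp12, the macrophage elastase, read 13.27 and 13.62 in Spp1-/- smoke and 13.51 and 13.18 in WT smoke, against 9.63 and 9.19 in WT air. In all of these the smoke-exposed arrays of both genotypes lay together and far above the air arrays. The rise of Mmp12 was 4.03 ± 0.22, or 16.4-fold (adjusted p = 0.00265).

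The remaining 12 of the 15 largest increases ran from 2.86 to 3.78. Among them were Syngr1, a synaptic vesicle protein (3.78), Car13, a carbonic anhydrase (3.35), Fabp5, a fatty acid carrier (3.31), and Ptgir, the prostacyclin receptor (3.08). Slc7a11, the cystine transporter that feeds glutathione synthesis, rose by 2.97, and Igf1, a growth factor made by macrophages, by 2.87. The chemokine genes Ccl9 and Ccl7 rose by 3.17 and 3.01, and the chemokine receptor gene Cxcr1 by 2.97. Gpr176, an orphan receptor, rose by 2.93 and Fstl1, a secreted glycoprotein, by 2.86. Rsad2, which encodes the antiviral protein viperin, was the exception in its relation to WT smoke. It read 11.72 and 12.23 in Spp1-/- smoke, against 9.36 and 9.34 in WT smoke and 9.15 and 8.75 in WT air. Only Rsad2 among these 15 had WT smoke close to WT air; the others had WT smoke close to Spp1-/- smoke. Car13 lost its call when either Spp1-/- smoke array was left out, with adjusted p = 0.0681 and 0.0858, and Slc7a11 and Fabp5 lost theirs without replicate 2, at 0.0558 and 0.0526. Dimmer probes of Slc7a11, with means from 7.21 to 8.83, gave differences from -0.03 to 1.38.

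**Figure D2:**
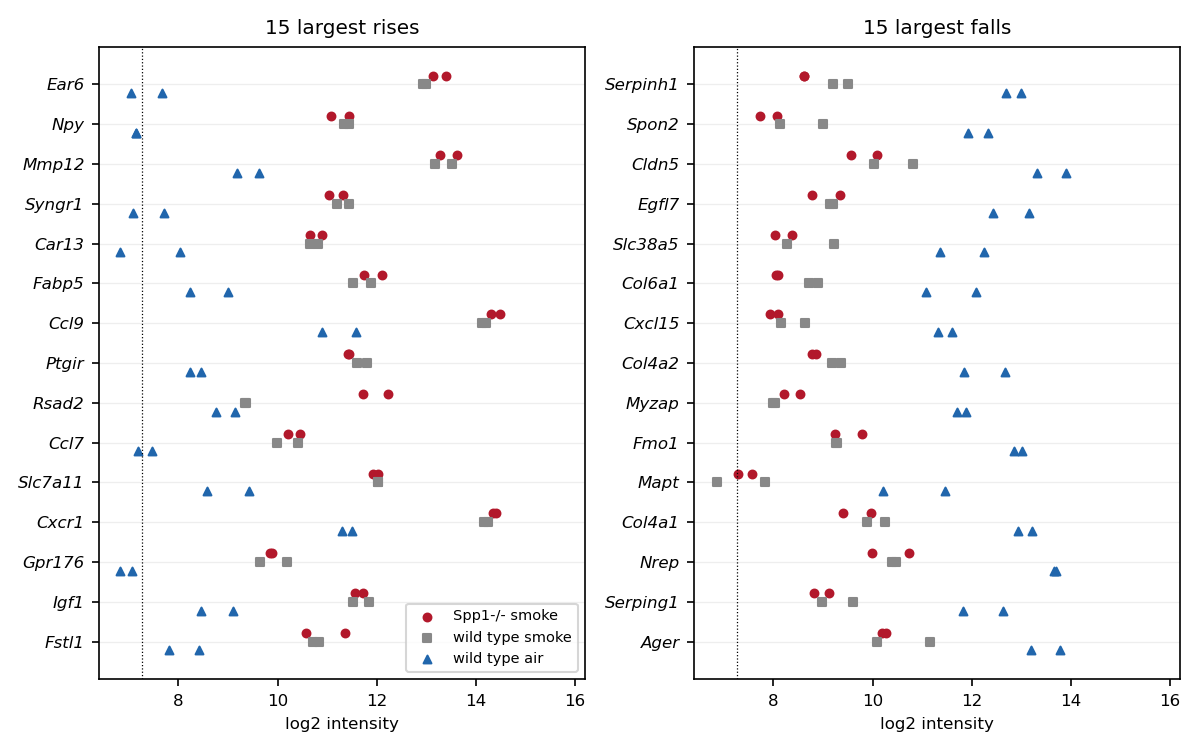
Log2 intensity on each array (x axis, dotted line at the array median) of the 15 genes with the largest increase and the 15 with the largest decrease, grouped as Spp1-/- smoke, WT smoke and WT air. WT smoke lies beside Spp1-/- smoke for nearly every gene, with Rsad2 the exception among the increases.

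The largest decreases included genes of vessel wall, connective tissue and epithelium. Marker lists of these cells were lower in the same comparison, with medians of -2.62 for endothelium, -2.11 for fibroblasts and -1.53 for alveolar type II cells, and their part in this or any other result was not tested. In bulk samples fewer cells of a type and less RNA per cell cannot be told apart. Serpinh1, the chaperone of collagen folding, read 8.62 and 8.62 in Spp1-/- smoke and 9.21 and 9.51 in WT smoke, against 12.70 and 12.99 in WT air. The difference was -4.23 ± 0.15 (log2, SE, n = 2 each), or 18.8-fold lower (adjusted p = 0.00205). Cldn5, the tight junction protein of endothelium, read 10.09 and 9.56 in Spp1-/- smoke and 10.03 and 10.82 in WT smoke, against 13.31 and 13.91 in WT air. Its difference was -3.78 ± 0.37 (adjusted p = 0.00685), and the call was lost without Spp1-/- smoke replicate 2, at 0.0548. Spon2 (-4.22), Egfl7 (-3.72) and Col4a2 (-3.43) encode extracellular or vessel-wall proteins. Cxcl15 (-3.44) is a chemokine of lung epithelium, Ager (-3.26) marks alveolar type I cells, and Fmo1 (-3.41) is a xenobiotic oxidase. The other members of the 15 were Slc38a5, Col6a1, Myzap, Mapt, Col4a1, Nrep and Serping1, with differences from -3.60 to -3.26. Leaving out Spp1-/- smoke replicate 1 or 2 ended the calls of Slc38a5 (adjusted p = 0.0762 and 0.0725), Col6a1 (0.0514 and 0.0592), Mapt (0.1 and 0.124), Ager (0.0728 and 0.0857) and Serping1 (0.0527 and 0.068). Of the dimmer probes, the next brightest of Egfl7 and Fmo1 differed by -2.80 and -2.18. The third of each differed by 0.00 and -0.01, and the other probe of Spon2 by -0.13. These probes without a clear difference averaged 7.57, 7.29 and 7.46, near the array median.

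Genes of lipid handling in loaded macrophages were called in the upward direction alone, beside 10.8% higher among the brighter genes. Of 21 measured genes, 13 were higher in Spp1-/- smoke than in WT air and 0 lower, with a list median of 0.70 beside 0.01 over all genes. Trem2, a lipid-sensing receptor, read 12.60 and 12.61 in Spp1-/- smoke and 12.82 and 12.87 in WT smoke, against 9.93 and 9.99 in WT air. Its adaptor gene Tyrobp read 13.21 and 13.17 in Spp1-/- smoke and 13.14 and 13.18 in WT smoke, against 11.68 and 11.66 in WT air. Trem2 and Tyrobp rose by 2.64 ± 0.06 and 1.51 ± 0.06 (adjusted p = 0.00205 each). Ch25h, which makes 25-hydroxycholesterol, rose by 2.68, the lysosomal protease gene Ctsk by 1.58, the scavenger receptor gene Msr1 by 1.32 and Gpnmb by 1.63. Apoe, the apolipoprotein of cholesterol export, did not pass (-0.31). The count of 13 was 9 without Spp1-/- smoke replicate 1, 6 without replicate 2, and 9 when either WT smoke array was left out. Relative to WT smoke, the list had a median of 0.06. The alveolar macrophage markers, which share some members with this list, had a median of 0.28 relative to WT air, and their part in the result was not tested.

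Among 21 measured hydrolases and membrane proteins, 12 were higher and 0 lower (median 0.58), beside 10.8% higher among the brighter genes. In the list of 14 subunits of the proton pump that acidifies the lysosome, 10 were higher and 0 lower (median 0.84). The pump subunit gene Atp6v1c1 read 12.13 and 12.17 in Spp1-/- smoke and 12.21 and 12.26 in WT smoke, against 9.84 and 9.54 in WT air, a rise of 2.46 ± 0.11. Lamp1, a lysosomal membrane glycoprotein, rose by 1.16 ± 0.11, and Ppt1, Grn and Gusb by 1.21, 1.04 and 1.01. Cathepsins, the lysosomal proteases, had 6 higher and 1 lower of 13. Ctsk, Ctsz, Ctss, Ctsd, Ctsb and Ctsc rose by 0.65 to 1.58, and Ctsw, a cathepsin of cytotoxic lymphocytes, fell by 1.08. Counts fell with fewer arrays: 4 and 1 hydrolase genes were higher without Spp1-/- smoke replicate 1 and 2, and 6 when either WT smoke array was left out. For the pump the same settings gave 5, 4 and 6, and for higher cathepsins 3, 2 and 2. Atp6v1h, another pump subunit gene, rose by 2.10 on its brightest probe. Its dimmer probe differed by 0.01 but averaged 7.56, near the array median.

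Promoters of lysosomal genes are known to carry the CLEAR element bound by the transcription factor TFEB. Its core, TCACGTGA, was searched on both strands in windows from 250 bases before to 50 after the gene start (RefSeq, GRCm38.p6). It occurred in 241 of 15237 compared genes with a window (1.58%). Among measured members with a window, it was in 2 of 19 hydrolase and membrane protein genes (Mcoln1 and Gla). In the pump list it was in 3 of 9 (Atp6v0d1, Atp6v0e and Atp6v1a). Among the higher genes with a window the shares were 2 of 12 and 3 of 7. The lists were chosen as lysosomal genes, so these shares describe the lists. The window of Atp6v0d1 at chr8:105566015-105566314, minus strand, is shown 5′ to 3′ with the core in capitals, because its first letter lies 4 bases before the start.
Atp6v0d1: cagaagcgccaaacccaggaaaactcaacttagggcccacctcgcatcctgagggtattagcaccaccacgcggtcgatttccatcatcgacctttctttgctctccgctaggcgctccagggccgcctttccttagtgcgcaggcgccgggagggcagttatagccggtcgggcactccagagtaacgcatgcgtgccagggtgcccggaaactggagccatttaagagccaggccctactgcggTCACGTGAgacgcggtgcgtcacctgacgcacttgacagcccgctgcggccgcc
Atp6v0d1 itself read 13.60 and 13.79 in Spp1-/- smoke and 13.72 and 13.83 in WT smoke, against 12.64 and 12.73 in WT air, a rise of 1.01 ± 0.10 (adjusted p = 0.00652). A match is a description of letters and says nothing of binding.

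Protease and chemokine genes were called in both directions, beside 10.8% higher and 9.48% lower among the brighter genes. Of 17 measured metalloproteases and inhibitors, 3 were higher (Mmp12, Mmp2 and Mmp25) and 5 lower, among them Mmp9 at 8.18 and 8.0 in Spp1-/- smoke and 8.37 and 8.26 in WT smoke, against 9.91 and 10.21 in WT air. Timp3, an inhibitor anchored in the matrix, fell by 2.88. Of 28 chemokines, 9 were higher and 4 lower. Ccl3 read 10.12 and 10.54 in Spp1-/- smoke and 10.63 and 10.56 in WT smoke, against 7.79 and 7.35 in WT air, a rise of 2.76 ± 0.20. Ccl6, Ccl17, Ccl4, Ccl2 and Ccl12 rose by 1.29 to 2.31, and Cxcl10, an interferon-induced chemokine, by 0.90. Cxcl12, a stromal chemokine, Ccl21a, Cxcl14 and Cxcl15 were lower, with differences from -3.44 to -1.29. Leaving out either Spp1-/- smoke array gave 1 higher and 2 lower metalloprotease genes, leaving out either WT smoke array gave 1 and 3, and leaving out WT air replicate 2 gave 6 and 4. Higher chemokines numbered 5 and 6 without Spp1-/- smoke replicate 1 and 2.

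Among genes of amino acid supply that the factor ATF4 governs, 9 of 21 were higher and 0 lower (median 0.41). The share called higher among the brighter genes was 10.8%. Asns, asparagine synthetase, read 11.70 and 11.48 in Spp1-/- smoke and 12.23 and 12.18 in WT smoke, against 9.86 and 9.87 in WT air, a rise of 1.73 ± 0.09 (adjusted p = 0.00262). Trib3, a pseudokinase, read 11.65 and 11.38 in Spp1-/- smoke and 11.75 and 11.93 in WT smoke, against 9.15 and 9.26 in WT air, a rise of 2.31 ± 0.12. Psat1 and Mthfd2, enzymes of serine and folate metabolism, rose by 1.35 and 1.13. Leaving out either Spp1-/- smoke array left 5 of the list higher, and leaving out WT air replicate 1 gave 9 higher and 4 lower. The amino acid response core TGATGNAA (both strands) was present in 574 of 15237 compared windows (3.77%). It was in 7 of the 19 measured list members with a window (36.8%), and in 4 of the 8 higher ones (Trib3, Asns, Aars and Atf3). The list was chosen from genes that ATF4 governs, so this share describes the list. The window of Asns, chr6:7693160-7693459, minus strand, is shown with the core in capitals, 23 bases before the start, as the textbook target of ATF4.
Asns: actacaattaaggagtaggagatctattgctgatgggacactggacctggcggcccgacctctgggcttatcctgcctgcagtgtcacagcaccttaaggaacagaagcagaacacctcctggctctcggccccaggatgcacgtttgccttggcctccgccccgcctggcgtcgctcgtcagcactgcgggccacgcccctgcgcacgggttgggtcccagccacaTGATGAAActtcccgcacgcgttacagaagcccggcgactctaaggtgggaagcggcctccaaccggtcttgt
Folding genes of the endoplasmic reticulum had 5 higher and 0 lower of 16, with Fkbp11 at 2.72 and the chaperone gene Hspa5 at 0.96. Without Spp1-/- smoke replicate 1 and 2, the higher folding genes numbered 1 and 2, and Hspa5 was not called (adjusted p = 0.102 and 0.114). They numbered 3 when either WT smoke array was left out.

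Cell cycle and energy metabolism genes were called upward only. Among the brighter genes, 10.8% were called higher and 9.48% lower. Of 31 cell cycle genes, 10 were higher and 0 lower (median 0.57), including Pcna, the sliding clamp of replication (1.32 ± 0.22). Without Spp1-/- smoke replicate 1 and 2, the higher cell cycle genes numbered 1 and 0; without WT air replicate 1 they numbered 15. Of 27 respiratory chain genes, 11 were higher and 0 lower, with 3 and 0 without those same Spp1-/- smoke arrays. Glycolysis had 6 higher and 0 lower of 16, led by Pgam1 (1.5 ± 0.11) and Pgk1 (1.20). The higher glycolysis genes numbered 4 and 2 without Spp1-/- smoke replicate 1 and 2, and Pgk1 was not called without replicate 2 (adjusted p = 0.0591). When either WT smoke array was left out, higher genes numbered 5 in the cell cycle list and 6 in the respiratory chain list. Enzymes that process inhaled chemicals were called downward. Markers of club, ciliated and alveolar type I cells were lower too (median -1.42), and their part in this result was not tested. Of 15 phase I enzymes and Ahr targets, 0 were higher and 7 lower (median -1.01). Cyp2f2, an enzyme of club cells, fell by 1.94, Aldh1a1 by 2.49 and Cyp2b10 by 2.27. Cyp1a1 lay at the floor in every group (6.76 to 6.93) and Nqo1, a target of NRF2, near the array median (7.26 to 7.50). Calls of the NRF2 list lay near the shares of brighter genes in both directions, so they are not read as a result about it. The NRF2 list had 3 higher, led by Slc7a11, and 3 lower of 19; without Spp1-/- smoke replicate 1 or 2 it had 1 higher, and without WT air replicate 1 or 2 it had 5 lower. The phase I count was 4 and 1 without Spp1-/- smoke replicate 1 and 2.

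**Figure D3:**
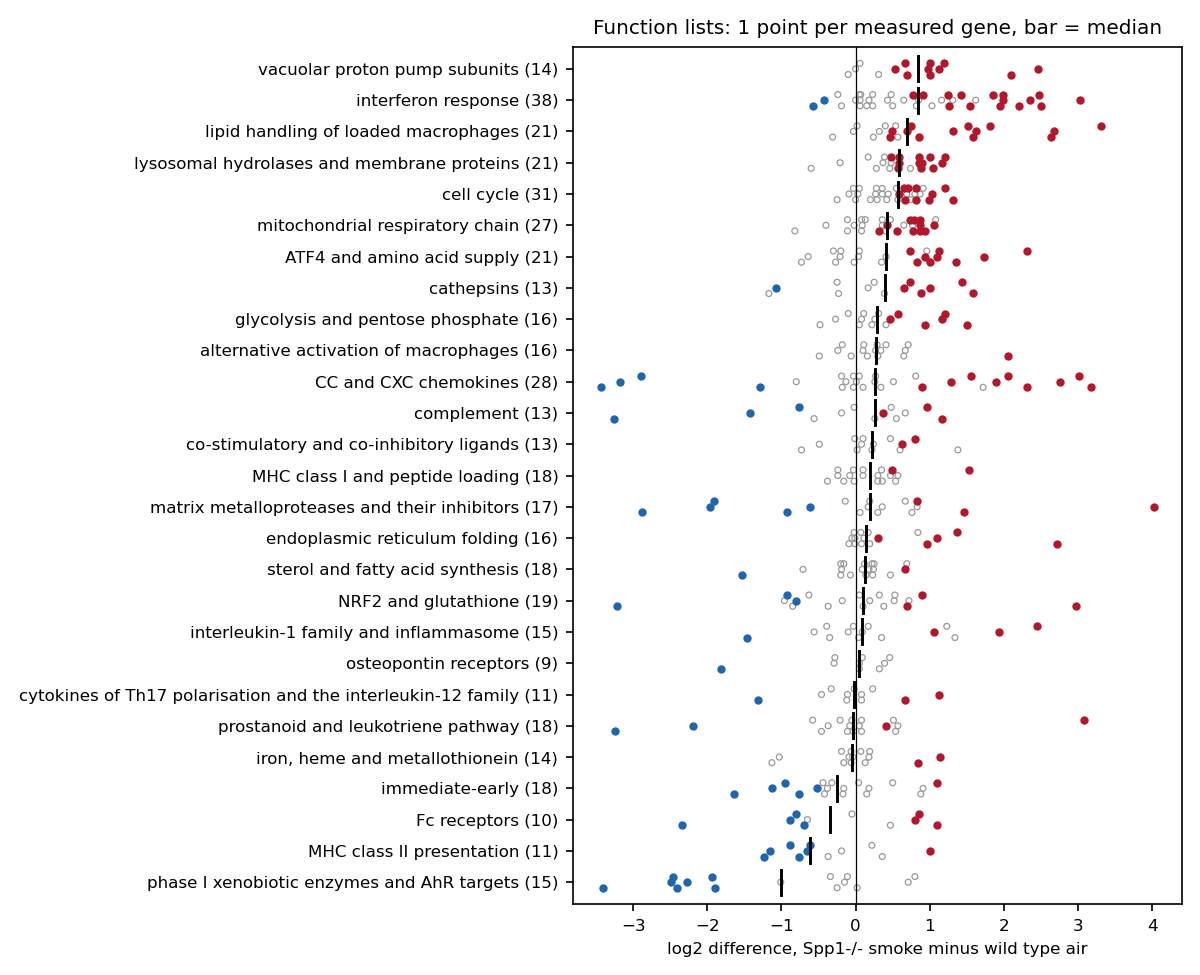
Log2 difference between Spp1-/- smoke and WT air (x axis) for each measured member of the function lists (down the page), with called genes coloured and a bar at the list median. The proton pump and interferon lists have the highest medians, 0.84 each, and the phase I list has the lowest, -1.01.

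Of 11 MHC class II genes, 6 were lower and 1 higher (median -0.62). Cd74, the invariant chain, read 12.61 and 12.90 in Spp1-/- smoke and 12.95 and 12.93 in WT smoke, against 13.88 and 13.94 in WT air, a fall of 1.16 ± 0.11 on the log2 scale (adjusted p = 0.00672). H2-Ab1 fell by 0.76, and H2-Aa, at -0.37, did not pass (adjusted p = 0.0531). The higher gene was Ctss, which trims the invariant chain. Of the 11, 1 was called lower without Spp1-/- smoke replicate 1 and 2 were without replicate 2. B cells also express these genes, 6 of 10 measured B cell markers were lower, and their part in the class II result was not tested. Of the brighter genes, 10.8% were higher. Class I and peptide loading had 2 higher and 0 lower of 18, Nlrc5 (1.53), its transactivator, and H2-K1 (0.49). Both calls were lost when either Spp1-/- smoke array was left out. The list of co-stimulatory and co-inhibitory genes had 2 higher and 0 lower of 13. That is near the share of brighter genes called higher, so the calls are not read as a result about the list. The 2 called were Havcr2 (0.8) and Cd274 (0.62), from the co-inhibitory side. The co-stimulatory genes Cd86 (1.38, limma adjusted p = 0.0531), Cd40 (-0.49) and Cd70 (0.47) did not pass. The count of 2 rose without either WT air array, fell without either Spp1-/- smoke array and stayed without either WT smoke array. It was 4 with an intensity trend and with the floor subtracted.

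The lists that follow were called in both directions or held few calls, against 20.3% called among the brighter genes. Of 18 prostanoid genes, Ptgir and Alox5ap were higher, and Ptgis and Hpgd lower. Hpgd, which degrades prostaglandins, read 9.16 and 8.83 in Spp1-/- smoke and 8.93 and 8.95 in WT smoke, against 12.15 and 12.31 in WT air. Of 13 complement genes, C1qb, Itgax and Itgam were higher, and Serping1, C4b and Cr2 lower. Among 10 Fc receptor genes, Fcgr3, Fcgr4 and Fcer1g were higher and 4 were lower. Without Spp1-/- smoke replicate 1 and 2, the complement list had 2 and 1 higher and 0 lower, and the Fc receptor list had 2 and 0 higher and 2 lower. Without WT air replicate 2, the complement list had 2 higher and 1 lower. The inflammasome list of 15 had Il1r2, a decoy receptor (2.45), Pycard (1.94) and Il1rn (1.06) higher and Il33 lower, while Il1b, at -0.56, did not pass. All 4 calls were lost when either Spp1-/- smoke array was left out. Of 11 interleukin-12 family and Th17 cytokine genes, Tgfb1 and Ebi3 were higher and Tgfb3 lower. Among 9 osteopontin receptor genes, Itga9 was lower (-1.82, adjusted p = 0.0477) and the other 8 did not pass. The call of Itga9 was lost in 9 of 16 alternatives, with adjusted p = 0.104 and 0.214 without Spp1-/- smoke replicate 1 and 2. Cd44 gave -0.28 on its brightest probe, 0.77 on the next one. Of 18 immediate-early genes, Atf3 was higher and 5 were lower, including Fos (-0.95) and Klf2 (-1.64). Without Spp1-/- smoke replicate 1 or 2, and when either WT smoke array was left out, 2 were lower, and without WT air replicate 1, 3 were higher. Cytokine genes Tgfb1 and Ebi3 lost their calls when either Spp1-/- smoke array was left out. Alternative activation had Ccl17 higher, of 16, iron handling had Slc11a1 and Blvrb higher, of 14, and sterol synthesis had Lss higher and Scd1 lower of 18. Higher alternative activation genes numbered 3 without WT air replicate 1 and 4 without replicate 2. Both iron handling calls and that of Lss were lost when either Spp1-/- smoke array was left out.

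Of 38 measured interferon response genes, 15 were higher in Spp1-/- smoke than in WT air and 2 lower, with a median of 0.84; the median was 0.73 relative to WT smoke, and WT smoke relative to WT air had a median of 0.00. Shares called among the brighter genes were 10.8% higher and 9.48% lower. The mean level of the list was 10.03 and 10.19 in Spp1-/- smoke, 9.04 and 9.15 in WT smoke, and 9.24 and 9.08 in WT air. Usp18, which removes ISG15 from proteins and damps interferon signalling, read 11.59 and 11.52 in Spp1-/- smoke, 9.15 and 9.39 in WT smoke, and 9.25 and 9.47 in WT air. Its rise over WT air was 2.20 ± 0.12 (adjusted p = 0.00268). Among genes of oligoadenylate synthetases, which make the activator of the RNA-degrading enzyme RNase L, Oas2 rose by 2.48, Oas1g by 2.35 and Oas1a by 1.85, while Oas3 lay near the array median in every group. Oas2 read 9.82 and 10.51 in Spp1-/- smoke, 7.92 and 7.73 in WT smoke, and 7.71 and 7.66 in WT air. Oas1a read 8.57 and 8.78 in Spp1-/- smoke, 7.87 and 8.03 in WT smoke, and 6.75 and 6.89 in WT air. WT smoke thus lay between the other groups for Oas1a, 1.12 above WT air (limma adjusted p = 0.00677). Ifi27l2a rose by 1.99, Lgals3bp by 1.99, Phf11d by 1.54 and Mx2, a dynamin-like antiviral GTPase, by 1.26. Irf7 read 8.70 and 9.14 in Spp1-/- smoke, 7.13 and 7.29 in WT smoke, and 7.33 and 7.66 in WT air, a rise of 1.42 ± 0.19 (adjusted p = 0.0146) that was not called without Spp1-/- smoke replicate 2 (0.0703). The 2 lower genes were Ifitm3 (-0.58 ± 0.11) and Irgm1 (-0.43 ± 0.07), and in both WT smoke lay lower still. The lower count was 1 without Spp1-/- smoke replicate 1 and without WT air replicate 1 or 2. It was 0 without Spp1-/- smoke replicate 2, when either WT smoke array was left out, and with the floor subtracted. Ifit1 (7.14 to 7.39) and Isg15 (7.50 to 7.81) lay near the array median in every group. The count of 15 higher genes was 9 without Spp1-/- smoke replicate 1, 7 without replicate 2, 23 without WT air replicate 1 and 12 when either WT smoke array was left out.

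**Figure D4:**
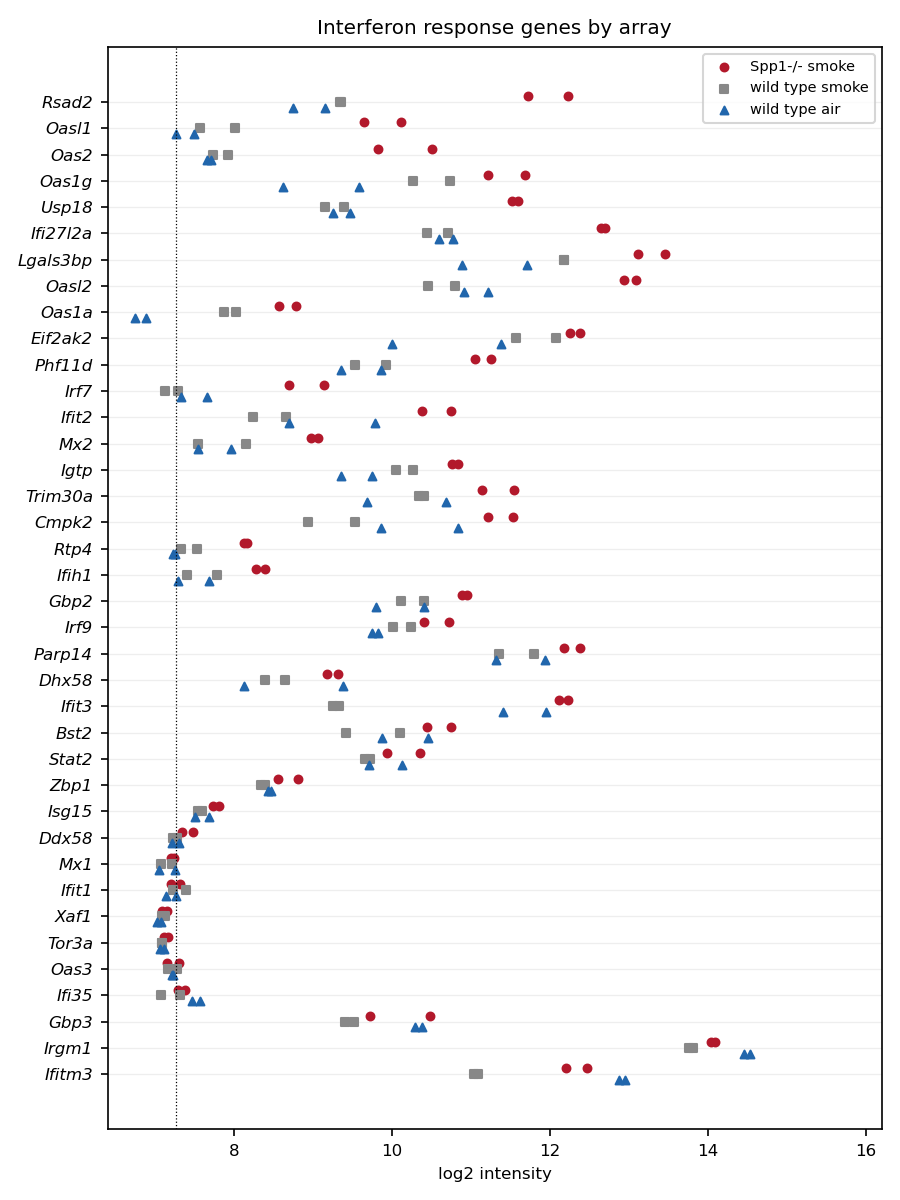
Log2 intensity (x axis, dotted line at the array median) of the 38 measured interferon response genes (down the page), with 1 point per array for Spp1-/- smoke, WT smoke and WT air. Spp1-/- smoke lies above both other groups for Usp18, Rsad2, Ifi27l2a, Oas1a, Oas1g and Oas2, and Ifit3 lies lowest in WT smoke.

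Interferon-stimulated genes are known to carry the interferon-stimulated response element, whose core was searched as GAAA, any 2 bases and GAAA. It was found on either strand in 608 of 15237 compared windows (3.99%), in 18 of the 28 measured list members with a window, and in 4 of the 10 higher ones with a window (Oas1a, Oas1g, Rsad2 and Igtp). The list was chosen from genes known to respond to interferon, so this share describes the list. Windows of Rsad2 (chr12:26456403-26456702, minus strand) and Oas1a (chr5:120907476-120907775, minus strand) are shown with the core in capitals, as higher genes whose window holds it. No window with the core was found for Usp18, Ifi27l2a or Oasl2. Of the 15 higher genes, 10 had a window. For Usp18, Ifi27l2a and Oasl2 the search did not tell a missing window from a window without the core. Rsad2 holds it 120 bases before the start, on the opposite strand, and Oas1a has 2 overlapping matches, at 20 and 14 bases before it.
Rsad2: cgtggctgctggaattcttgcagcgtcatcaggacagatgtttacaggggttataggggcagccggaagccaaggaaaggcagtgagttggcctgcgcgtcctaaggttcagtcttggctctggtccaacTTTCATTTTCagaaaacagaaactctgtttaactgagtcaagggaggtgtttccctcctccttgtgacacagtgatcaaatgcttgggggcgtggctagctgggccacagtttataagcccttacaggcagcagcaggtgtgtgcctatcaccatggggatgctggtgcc
Oas1a: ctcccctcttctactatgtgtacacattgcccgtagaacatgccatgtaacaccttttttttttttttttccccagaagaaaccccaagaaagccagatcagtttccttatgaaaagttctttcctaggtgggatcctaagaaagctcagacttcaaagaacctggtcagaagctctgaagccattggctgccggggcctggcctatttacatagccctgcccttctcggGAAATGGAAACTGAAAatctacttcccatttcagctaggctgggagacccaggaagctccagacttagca

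A test of the difference between the smoke-exposed genotypes found 0 of 19057 genes (0%) past the adjusted threshold in limma. The smallest adjusted p was 0.123. At an unadjusted p under 0.05 there were 478 higher (2.51%) and 332 lower genes (1.74%), 810 in all (4.25%), where chance alone would give 953. Of the interferon list, 25 of the 38 measured members were higher in Spp1-/- smoke at that level and 0 lower. By p-value, the first 10 genes were Usp18, Ifi27l2a, Rsad2, Oasl2, Ifit3, Ifi47, Rassf6, Csprs, Ifi211 and Slfn1, all higher in Spp1-/- smoke by 0.94 to 2.87, with adjusted p from 0.123 to 0.147. None of these passed, so the difference between the genotypes is a description. Oasl2 read 12.93 and 13.09 in Spp1-/- smoke, 10.45 and 10.80 in WT smoke, and 11.21 and 10.91 in WT air. Ifit3 read 12.11 and 12.23 in Spp1-/- smoke and 9.25 and 9.33 in WT smoke, against 11.95 and 11.41 in WT air, so WT smoke lay below both. Rassf6, a Ras association domain protein, read 8.74 and 8.65 in Spp1-/- smoke, 7.28 and 7.01 in WT smoke, and 7.13 and 7.08 in WT air. Of these 10 genes, Rassf6 and Oasl2 lie on chromosome 5, as does Spp1, while Usp18 lies on chromosome 6 and Ifi27l2a and Rsad2 on chromosome 12. Chromosomes of the other ranked genes are not given here. Distances from Spp1 were not measured, and whether nearness to it plays a part was not tested. Dimmer probes of Oasl2 differed from WT smoke by 0.83 and 0.04, and those of Rassf6 and Usp18 by 0.02 and -0.01. The dimmer probe of Ifit3 differed from WT smoke by -0.06 and from WT air by -0.26. Apart from the one at 0.83, these probes averaged 7.13, 7.28, 6.96 and 7.48, near or below the array median, where little difference can show. Ifi47 passed against WT air (0.36, adjusted p = 0.0498), and the call was lost in 15 of 16 alternatives.

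Markers of endothelium, fibroblasts, lung epithelium, smooth muscle and red cells were mostly lower in both smoke groups than in WT air. Of 16 endothelial genes, 13 were lower and 0 higher (median -2.62), with a mean level of 9.02 and 8.74 in Spp1-/- smoke, 8.81 and 9.09 in WT smoke, and 11.11 and 11.36 in WT air. Pecam1, the endothelial adhesion protein, read 8.25 and 8.02 in Spp1-/- smoke and 8.09 and 8.37 in WT smoke, against 10.91 and 10.64 in WT air. Fibroblast genes had 13 lower and 0 higher of 16 (median -2.11), with a mean level of 8.57 and 8.37 in Spp1-/- smoke, 8.44 and 8.44 in WT smoke, and 10.18 and 10.48 in WT air. Alveolar type II markers had 7 lower of 11 (median -1.53), including Sftpc, surfactant protein C, at 12.18 and 11.49 in Spp1-/- smoke and 11.89 and 12.47 in WT smoke, against 14.79 and 15.01 in WT air. Club, ciliated and type I markers had 12 lower and 1 higher of 16, smooth muscle and pericyte genes 6 lower of 12, and erythroid genes 2 of 3. Without Spp1-/- smoke replicate 1 and 2, the endothelial calls numbered 12 and 8, the fibroblast calls 8 and 7, the type II calls 3 and 3, and the club and type I calls 5 and 2.

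**Figure D5:**
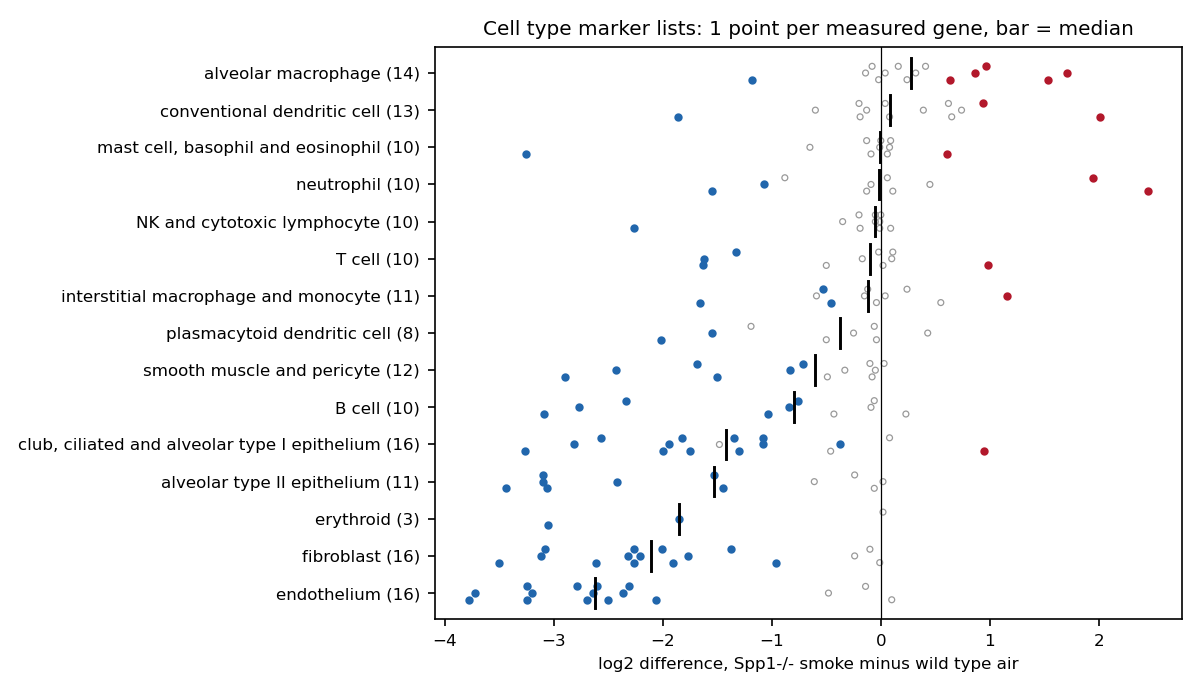
Log2 difference between Spp1-/- smoke and WT air (x axis) for each measured member of the cell type marker lists (down the page), with called genes coloured and a bar at the list median. Endothelial and fibroblast markers lie far to the left, with medians of -2.62 and -2.11, and alveolar macrophage markers have a median of 0.28.

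Markers of the antigen presenting cells themselves were called in both directions, and markers of lymphocytes and granulocytes are given beside them. Of the brighter genes, 20.3% were called. The conventional dendritic, plasmacytoid, NK and mast cell lists lay near or below that share, so their calls are not read as a result about those cells. The neutrophil and NK lists had medians of -0.02 and -0.05. Alveolar macrophage genes had 5 higher and 1 lower of 14, with a mean level of 11.77 and 11.91 in Spp1-/- smoke, 11.81 and 11.76 in WT smoke, and 11.49 and 11.41 in WT air. Car4, a carbonic anhydrase, rose by 1.71 and Itgax, the integrin CD11c, by 0.96. Conventional dendritic cell genes had Itgae, the integrin CD103, higher at 2.01, Kmo higher and Dpp4 lower at -1.86, of 13. Interstitial macrophage and monocyte genes had C1qb higher and Ace, Cx3cr1 and Cd14 lower, of 11. Plasmacytoid genes had 2 lower of 8. B cell markers had 6 lower of 10, with Cd79b, a chain of the B cell receptor, at 10.01 and 9.53 in Spp1-/- smoke and 10.28 and 10.14 in WT smoke, against 13 and 12.73 in WT air. T cell markers had 3 lower and 1 higher of 10; the higher one, Cd8b1, differed by 0.98 on its brightest probe and by -1.55 on its next one. Neutrophil markers had S100a8 and Il1r2 higher and Csf3r and Retnlg lower, of 10. NK and cytotoxic lymphocyte markers had 1 lower of 10, Prf1, and mast cell, basophil and eosinophil markers had 1 higher and 1 lower of 10, Prg2 and Gata2. Without Spp1-/- smoke replicate 1 and 2, higher alveolar macrophage genes numbered 3 and 2, lower interstitial ones 1 and 0, higher dendritic cell ones 0 and 0, and lower B cell ones 4 and 3. Itgae was not called when either of these arrays was left out (adjusted p = 0.0767 and 0.107). Cd14 lost its call in 12 of 16 alternatives and Cx3cr1 in 7 of 15. When either WT smoke array was left out, the interstitial list had 0 lower.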

How the data were processed

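Data came from 6 arrays, 2 each of Spp1-/- smoke, WT smoke and WT air, assigned by title. Per the labels' protocols, Trizol was used for RNA extraction and an Ambion MessageAmp kit for labelling cRNA with biotin. The isolation of the cells is not described in the labels. The values were the log2 intensities that the authors deposited for 45281 probes. Their sorted columns differed by at most 0.0056 between arrays, as quantile normalized values do. Of tools, limma is listed, with no version, per the submitters' processing notes. Background correction is not stated. The authors also deposited a table of 12 columns (signal and detection p per array), left out here since no column name matches a label.

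The platform annotation named the probes, and RefSeq (GRCm38.p6) updated the symbols. Of the probes, 34885 had 1 gene, 18 had several and 10378 were not named here, and 34807 symbols were found in RefSeq. Each gene was represented by its brightest probe by mean over the 6 arrays, which gave 19057 genes, 12382 of them in the brighter 50% of probes.

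limma 3.58.1 in R 4.3.3 was fitted with 1 coefficient per group over all 6 arrays (residual degrees of freedom 3, prior 1.85). Benjamini-Hochberg adjustment ran over all 19057 genes, and a gene was called at an adjusted p under 0.05. With 2 arrays a group, the smallest exact permutation p is 0.333, so none was used. The steps were tested on simulated data. The number of arrays limits the precision. The genes and lists were chosen with earlier results of these data known. Named genes were those with the 15 largest increases and the 15 largest decreases among called, non-overlapping genes of the brighter 50% of probes with a non-provisional symbol, the 10 smallest p-values against WT smoke, and up to 5 members of each list by p. Members beyond these, and low or unchanged genes given as background, were named after their values had been seen.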

Additional observations from a re-analysis of the deposited data

Results flagged for a closer look

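Named genes among the brighter probes were searched for Spp1-/- smoke and WT smoke arrays on opposite sides of both WT air arrays. This ordering was found in 5 named genes and was not counted over all genes. Ifit3, Oasl2 and Ifi47 had been named for their small p-values against WT smoke. That choice favours such an ordering, so the 5 genes are a description of named genes alone. The difference between Spp1-/- smoke and WT smoke was tested in limma and passed for none of the 5 genes. Ifit3 differed by 2.87 between them, at 0.48 above WT air in Spp1-/- smoke and 2.39 below it in WT smoke (adjusted p = 0.123). Oasl2 differed by 2.39, at 1.95 above WT air in Spp1-/- smoke and 0.44 below it in WT smoke (adjusted p = 0.123). Irf7 differed by 1.71, at 1.42 above in Spp1-/- smoke and 0.29 below in WT smoke (adjusted p = 0.379). Ifi47 differed by 1.15, at 0.36 above in Spp1-/- smoke and 0.79 below in WT smoke (adjusted p = 0.123). H2-K1 differed by 0.62, at 0.49 above in Spp1-/- smoke and 0.13 below in WT smoke (adjusted p = 0.692).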

How the results depend on the processing

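The count of genes called between Spp1-/- smoke and WT air was 2559. It stayed within 1.5 times of that with the brighter 50% of probes (2804), the brighter 25% (2470), probes averaged per gene (2397), a trended robust prior (2586), weighted arrays (2211), the floor subtracted (2574) and centring (2562). It was 1626 with only the 2 groups compared, and 1231 at a 2-fold threshold. Without each array in turn it ran from 564 to 3926. Leaving out either WT smoke array gave the fit of the 2 groups alone, since a lone array adds no spread. Of 189 named genes called against WT air, 100 lost the call without Spp1-/- smoke replicate 2, 77 without replicate 1 and 34 with 2 groups. The other settings cost at most 51, the number at a 2-fold threshold. Cd8b1 reversed with the mean of its probes, to -0.44. The cause was not tested. Between Spp1-/- smoke and WT smoke, 0 genes passed, against 8 with the brighter 25% of probes, 7 with an intensity trend, 3 with array weights and 1 with 2 groups; leaving out each array in turn gave 0 to 1. Usp18, Ifi27l2a, Rsad2, Oasl2 and Ifit3 passed with the brighter 25% of probes and with the trend. Ifi47 lost its call against WT air in 15 of 16 settings. Replicate numbers are shared by the labels, but numbers did not pair the arrays (correlations of deviations -0.08, -0.03 and 0.14), and a replicate block gave 2172 calls against WT air and 0 against WT smoke. Background correction with neqc, a detection filter and a slide block were not run, because they need the table that was not used.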

Other observations

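A pair of genes outside the lists changed in the same way in both smoke groups. Ppp1r3c, a glycogen-targeting subunit of protein phosphatase 1, read 8.69 and 8.69 in Spp1-/- smoke and 8.44 and 8.05 in WT smoke, against 11.86 and 11.97 in WT air, and fell by 3.22 on the log2 scale (adjusted p = 0.00212). AA467197, a gene with a provisional symbol, read 12.91 and 13.29 in Spp1-/- smoke and 13.19 and 13.23 in WT smoke, against 8.95 and 9.24 in WT air, and rose by 4.00 (adjusted p = 0.00205). Both were chosen after their values had been seen.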
